A study of Mus musculus with 9 samples.

Results

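The genes described here encode the main conjugating (phase II) enzymes of the liver: the UDP-glucuronosyltransferases of the Ugt1, Ugt2 and Ugt3 families, the cytosolic sulfotransferases (Sult) and the cytosolic and kappa-class glutathione S-transferases (Gst). They were taken by gene symbol from the deposited expression table, without the pseudogenes marked with a -ps suffix, which gave 60 genes of 28517: 20 Ugt, 19 Sult and 21 Gst genes. RNA sequencing was done on livers of db/db mice, a strain that is obese and diabetic because its leptin receptor does not signal. All mice carried that genotype and received their treatment for 12 weeks, and the groups were vehicle (PBS), FGF19WT and FGF19ΔKLB, with 3 libraries in each. FGF19 is a gut hormone that acts on hepatocytes through a fibroblast growth factor receptor and its co-receptor β-Klotho, the protein that KLB abbreviates. The labels do not describe the change that the FGF19ΔKLB protein carries, nor the age or sex of the mice, nor whether replicates were separate animals, so the p-values measure only the spread between these libraries.

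Conjugation attaches a polar group to a drug, hormone or breakdown product so that it can leave the cell in bile or blood. Ugt enzymes sit in the endoplasmic reticulum and transfer a sugar, usually glucuronic acid, to bilirubin, steroids, bile acids and phenols. Sult enzymes transfer sulfate from the donor PAPS in the cytosol, and Gst enzymes add glutathione to reactive electrophiles. Hepatocytes carry most of this activity, and several Gst mu-class genes are expressed more strongly around the central vein than around the portal tract. Several of the genes are known targets of the xenobiotic receptors PXR and CAR, of the aryl hydrocarbon receptor and of the antioxidant regulator Nrf2.

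The deposited counts summed to 65.1 to 73.3 M per library, of which albumin, the main secreted protein of hepatocytes, took 8.6 to 21.1%. Levels below are counts scaled to library size (CPM) with TMM scaling, except where FPKM, which also corrects for gene length, is named. All 8 hepatocyte marker genes were present in each library. FGF19WT libraries 2 and 3 stood apart from the other 7 libraries, with first principal component scores of 129.8 and 169.9 against a range from -64 to -7.9. In those 2 libraries all 10 pericentral hepatocyte markers lay above, and all 8 periportal markers below, every other library. Of the 8 hepatocyte markers, 4 also lay below every other library there and 0 above. Glutamine synthetase (Glul), the enzyme of the last cell layer around the central vein, was at 14800 and 12700 CPM there against 185 CPM in FGF19WT library 1 and at most 1000 CPM in the vehicle and FGF19ΔKLB libraries. Cyp2f2, a periportal cytochrome, was at 7.39 and 4.83 CPM there and at 122 CPM or more elsewhere, and the proliferation marker Mki67 was at 27.2 and 37.1 CPM there and at most 6.13 CPM elsewhere. In tissue RNA, fewer cells of a type and less RNA per cell cannot be told apart.

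Of the 60 genes, 53 had enough counts to be tested in the fit of all 9 libraries: 18 Ugt, 15 Sult and 20 Gst genes. The other 7 (Gsto2, Sult2a4, Sult2b1, Sult6b1, Sult6b2, Ugt1a8 and Ugt2a1) had at most 26 counts in any library. By mean FPKM, Gstm1, a mu-class transferase, had the highest mean over the 9 libraries at 899, followed by the phenol sulfotransferase Sult1a1 at 427. The alpha-class gene Gsta3 (324), the bilirubin-conjugating enzyme Ugt1a1 (316) and Gstm2 (265) came next, and the highest Ugt2 genes were the steroid-conjugating Ugt2b36 (186) and Ugt2b5 (145). The bile acid and steroid sulfotransferase Sult2a7 averaged 103 and Sult3a1, an amine sulfotransferase, 97 FPKM. Some of these means joined very unequal libraries. Gstm1 averaged 649 FPKM in vehicle, 1610 in FGF19WT and 433 in FGF19ΔKLB, where Sult1a1 was above it at 469 FPKM. Gstm2 ranged from 23.7 to 1120 FPKM and Sult2a7 from 1.44 to 289 FPKM, whereas Sult1a1 ranged only from 285 to 528 FPKM. The heat map of all tested genes shows which genes and libraries departed from vehicle.

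**Figure D1:**
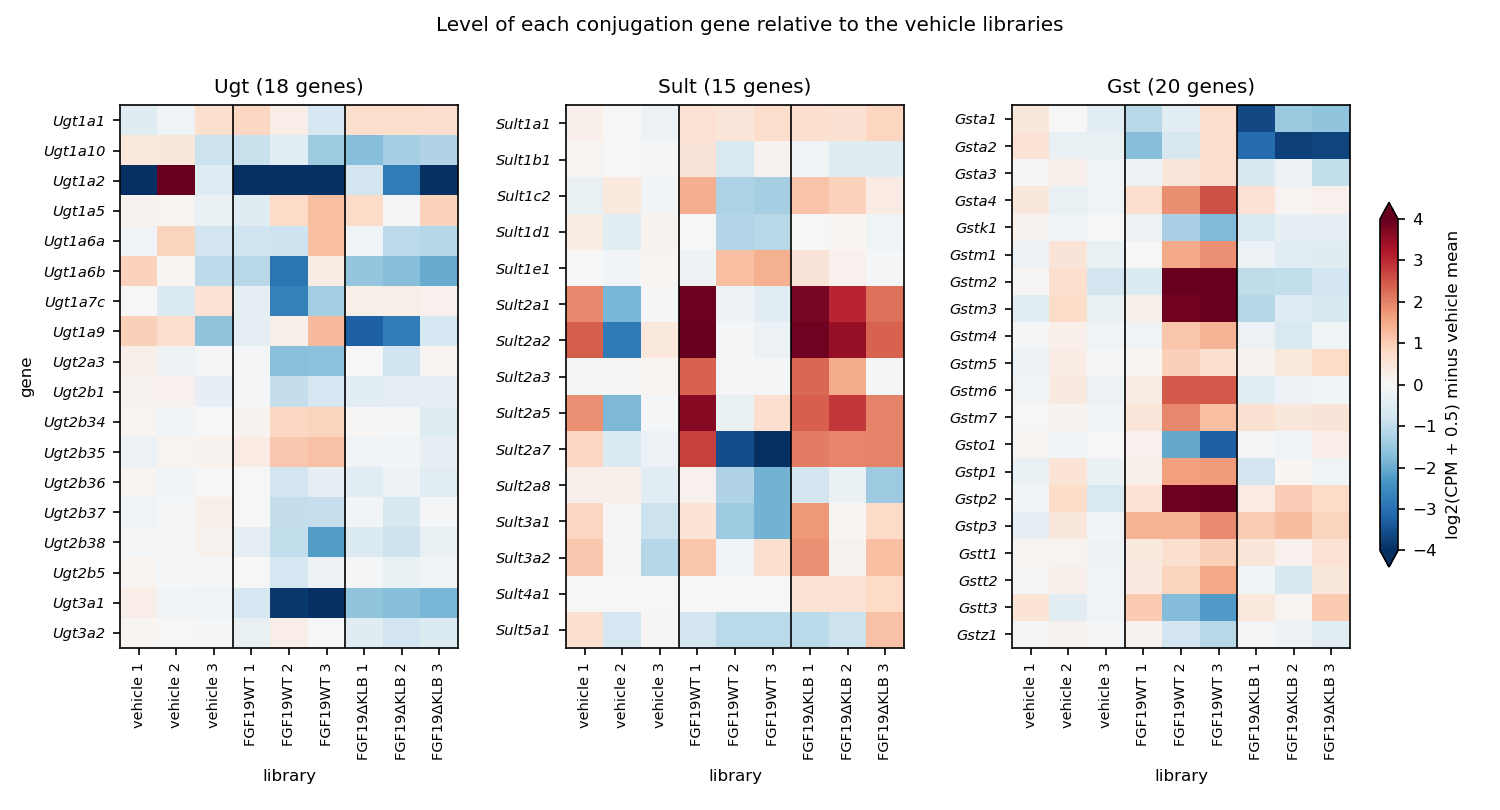
Colour gives log2(CPM + 0.5) minus the mean of the 3 vehicle libraries for the 53 tested genes (rows) in the 9 libraries (columns), with families in separate panels and the scale ending at -4 and 4. Red blocks in FGF19WT libraries 2 and 3 mark most Gst mu and pi genes. Blue cells in the FGF19ΔKLB columns mark Gsta1, Gsta2, Ugt3a1 and some Ugt1a genes, among them Ugt1a6b. Sult2a1, Sult2a2, Sult2a5 and Sult2a7 are red in FGF19WT library 1 and in FGF19ΔKLB.

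FGF19ΔKLB was first compared with vehicle. Gsta2, an alpha-class glutathione S-transferase, and Ugt3a1, a glycosyltransferase whose human counterpart uses UDP-N-acetylglucosamine, fell in a fit of these 6 libraries alone. Summed over each family, Sult RNA was at 1398, 1066 and 905.4 CPM in vehicle and at 1958, 1633 and 1683 CPM in FGF19ΔKLB, with no overlap. Summed Gst RNA was at 4140, 5201 and 3774 CPM in vehicle and at 3498, 3642 and 3286 CPM in FGF19ΔKLB, and summed Ugt RNA at 3334, 3399 and 3192 against 3036, 2770 and 2939 CPM. Sult sums were thus higher and Gst and Ugt sums lower in FGF19ΔKLB, and in none of the 3 families did the groups overlap. Of all single genes tested, 24.6% did not overlap either. Abundant genes weigh most in such sums. From vehicle to FGF19ΔKLB, mean Gsta3 went from 1530 to 1020 CPM and Gstm1 from 1020 to 754 CPM. Sult1a1 went from 513 to 841 CPM and Sult2a7 from 67.1 to 246 CPM. None of these genes was called in edgeR's 6-library fit.

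With the fit over all 9 libraries, edgeR's quasi-likelihood test with Benjamini-Hochberg adjustment called none of the 53 genes between FGF19ΔKLB and vehicle, where it called 0.011% of all genes tested. At an unadjusted p under 0.05 it gave 9 of the 53, or 17%, against 8.35% of all genes, and DESeq2 called 6 against 2.04% of all genes. That model takes its estimate of spread from all groups, and FGF19WT is the most variable: the biological coefficient of variation was 0.471 over 9 libraries and 0.326 over the 6 of vehicle and FGF19ΔKLB. In the 6-library fit 2 of 52 genes, or 3.85%, were called, both lower, against 1.68% of all genes in either direction and 0.79% lower. At an unadjusted p under 0.05 this fit gave 21 of the 52, or 40.4% against 17.3% of all genes, and DESeq2 on the same libraries called 12, or 23.1% against 7.95%. Without FGF19WT libraries 2 and 3, a fit that keeps FGF19WT library 1 called the same 2 genes, Gsta2 at an adjusted p of 0.0093 and Ugt3a1 at 0.00479, and 1.52% of all genes. Groups did not overlap for 25 of the 53 genes (9 higher and 16 lower in FGF19ΔKLB), or 47.2%, against 24.6% of all genes tested (12.4% higher and 12.2% lower). Sult4a1, which passed the count filter only through FGF19ΔKLB, is among these 9 higher genes and the 6 DESeq2 calls. It is also in both counts at an unadjusted p under 0.05, so its part in these shares was fixed by the filter.

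Gsta2 stands on chromosome 9 at chr9:78331018-78355788 on the minus strand of GRCm38. It was at 115, 62.5 and 62.6 CPM in vehicle, at 8.56, 5.29 and 5.55 CPM in FGF19ΔKLB and at 23.1, 48.5 and 126 CPM in FGF19WT. Each FGF19ΔKLB library was below each of the other 6, and FGF19WT library 3 was the highest of all. Against vehicle it fell by 3.63 on the log2 scale (SE 0.332, 95% interval -4.418 to -2.839, 3 libraries a group), a 12.4-fold difference, with an adjusted p of 0.0111 in edgeR's 6-library fit and 0.149 in the 9-library fit. It remained called when any of the 6 libraries was left out.

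Its neighbour Gsta1, also alpha class, was at 16.4, 12.1 and 8.52 CPM in vehicle and at 0.513, 3.92 and 3.6 CPM in FGF19ΔKLB. These groups did not overlap either, but the difference of -2.21 on the log2 scale missed the threshold in edgeR (adjusted p = 0.201, 6 libraries). In DESeq2 on the same libraries the adjusted p was 0.00413. The transcripts share sequence, with 36% of the 50-base windows of Gsta2 found also in Gsta1, so reads could be split between them. Their sum removes a split between these 2 genes, but not one with Gm3776, which holds 75.7% of the windows of Gsta1 and is not in the sum. It was at 131.2, 74.61 and 71.08 CPM in vehicle and at 9.078, 9.211 and 9.157 CPM in FGF19ΔKLB. The 3 FGF19ΔKLB sums were nearly equal while the split between the genes varied, and the sum fell by 3.34 on the log2 scale (SE 0.257, adjusted p = 0.00547, edgeR, 6 libraries). This fit of the sum was not planned but added after the data were seen, and it uses the same libraries as Gsta2 alone. Gsta3, which conjugates aflatoxin epoxide, was at 1460, 1750 and 1390 CPM in vehicle and 979, 1310 and 778 CPM in FGF19ΔKLB, lower without overlap, at -0.59 on the log2 scale (adjusted p = 0.217, edgeR, 6 libraries). The remaining alpha gene, Gsta4, which conjugates the lipid peroxidation product hydroxynonenal, overlapped between the groups at 46.9 to 80.3 CPM in vehicle and 62.5 to 86 CPM in FGF19ΔKLB. Low alpha-class levels in FGF19ΔKLB thus concerned Gsta1, Gsta2 and, less far, Gsta3.

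Promoter sequences are shown for the alpha pair and for Ugt3a1, which were low together in FGF19ΔKLB, and for Gstm2 and Gstm3, which were high together in FGF19WT libraries 2 and 3. Each line runs from 250 bases before to 50 bases after the RefSeq start on GRCm38.p6, 5′ to 3′ on the gene's strand. For Gsta2 and Ugt3a1 the whole window lies inside the deposited gene span. Capitals mark matches to GCGTG (aryl hydrocarbon receptor core), TTCNNNGAA (STAT5) and TCAAAG (TCF/LEF core). TGACNNNGC (antioxidant response core) had no match in these 5.
Gsta1 (chr9:78230419-78230718, plus strand): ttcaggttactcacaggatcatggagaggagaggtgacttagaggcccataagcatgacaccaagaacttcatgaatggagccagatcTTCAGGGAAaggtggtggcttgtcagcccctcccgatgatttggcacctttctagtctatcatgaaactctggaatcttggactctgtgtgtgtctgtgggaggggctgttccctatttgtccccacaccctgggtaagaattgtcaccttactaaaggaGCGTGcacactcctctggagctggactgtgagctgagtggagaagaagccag
Gsta2 (chr9:78347096-78347395, minus strand): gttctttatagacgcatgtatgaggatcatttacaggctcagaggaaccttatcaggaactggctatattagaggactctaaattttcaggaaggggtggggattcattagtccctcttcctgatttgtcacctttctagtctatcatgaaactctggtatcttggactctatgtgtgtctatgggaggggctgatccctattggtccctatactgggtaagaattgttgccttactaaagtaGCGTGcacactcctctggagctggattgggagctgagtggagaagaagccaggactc
Ugt3a1 (chr15:9279579-9279878, plus strand): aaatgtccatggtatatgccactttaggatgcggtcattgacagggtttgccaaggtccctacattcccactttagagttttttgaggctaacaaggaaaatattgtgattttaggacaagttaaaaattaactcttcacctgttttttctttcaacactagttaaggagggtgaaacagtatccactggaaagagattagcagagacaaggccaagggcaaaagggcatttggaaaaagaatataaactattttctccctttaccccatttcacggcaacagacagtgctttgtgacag
Gstm2 (chr3:107986371-107986670, minus strand): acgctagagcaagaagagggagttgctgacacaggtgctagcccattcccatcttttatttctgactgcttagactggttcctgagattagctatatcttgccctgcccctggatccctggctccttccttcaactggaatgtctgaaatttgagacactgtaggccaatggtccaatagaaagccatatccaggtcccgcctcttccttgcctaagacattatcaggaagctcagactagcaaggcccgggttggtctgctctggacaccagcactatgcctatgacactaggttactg
Gstm3 (chr3:107969125-107969424, minus strand): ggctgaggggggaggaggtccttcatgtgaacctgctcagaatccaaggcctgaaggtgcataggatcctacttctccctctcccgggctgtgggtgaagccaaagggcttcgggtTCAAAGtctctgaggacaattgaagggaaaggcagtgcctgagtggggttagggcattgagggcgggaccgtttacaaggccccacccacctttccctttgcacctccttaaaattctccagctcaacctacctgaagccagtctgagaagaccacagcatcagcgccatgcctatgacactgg

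The Gsta1 and Gsta2 windows were 74.6% identical, whereas other pairs of these 5 windows were 43.8 to 51.2% identical. Both alpha windows hold GCGTG, beginning 2 bases before the start in Gsta1 and 7 before it in Gsta2, and Gsta1 also has TTCNNNGAA 162 bases before the start. Gstm3 has TCAAAG 134 bases before the start, and the Gstm2 and Ugt3a1 windows hold none of the 4 motifs on either strand. RefSeq gave promoters for 52 of the 60 genes, 63 windows in all. GCGTG was in 20.6% of these windows and in 32.4% of all 32851 promoter windows, TGACNNNGC in 4.8% and 12.4%, TTCNNNGAA in 6.3% and 8.3%, and TCAAAG in 22.2% and 16%. Motifs were searched on both strands, no pair of these matches overlapped in the 5 windows, and a match is a stretch of letters, not a measured binding site.

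Ugt3a1, at chr15:9276888-9315032 on the plus strand, was at 96.3, 75 and 72.5 CPM in vehicle and at 25.9, 24.4 and 22.5 CPM in FGF19ΔKLB. FGF19WT library 1 was between these at 49.7 CPM, and FGF19WT libraries 2 and 3 were lowest at 5.11 and 4.21 CPM, so that all 6 treated libraries were below all 3 vehicle libraries. In FGF19ΔKLB it fell by 1.74 on the log2 scale (SE 0.143, 95% interval -2.078 to -1.409), or 3.35-fold, with an adjusted p of 0.00606 in edgeR's 6-library fit and 0.64 in the 9-library fit. It remained called when any of the 6 libraries was left out.

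Ugt3a2, its neighbour, whose human counterpart uses UDP-glucose and UDP-xylose, was at 380, 353 and 348 CPM in vehicle and at 260, 211 and 247 CPM in FGF19ΔKLB. Only 6.4% of its windows occur in Ugt3a1, so sharing of reads is limited. Its difference of -0.60 on the log2 scale was without overlap but missed the threshold in edgeR (adjusted p = 0.0644, 6 libraries). In DESeq2 on the same libraries the adjusted p was 0.0014.

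All 8 tested Ugt2 genes, which conjugate steroids, bile acids and many drugs, had a negative log2 fold change in FGF19ΔKLB, with a median of -0.28 against 0 over all genes in the 6-library fit, and 4 of them lay below vehicle without overlap, as did 12.2% of all genes tested. The differences were small, from -0.56 to -0.14, and none was called. Ugt2b36 was at 528, 448 and 486 CPM in vehicle and 355, 424 and 361 CPM in FGF19ΔKLB, a difference of -0.36 (adjusted p = 0.221, edgeR, 6 libraries). Ugt2b5 was at 349, 310 and 317 CPM against 307, 269 and 303 CPM, a narrower gap of -0.15 (adjusted p = 0.567).

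The Ugt1a genes lie in a shared locus in which each gene has its own first exon and all use the same last exons, so the way the authors' counting split these reads decides the level of each. Their transcripts share 52.1 to 80.2% of their windows with other genes. Ugt1a1 was at 430, 535 and 930 CPM in vehicle and at 975, 971 and 957 CPM in FGF19ΔKLB, above all vehicle libraries but with vehicle library 3 close by (log2 difference 0.61, adjusted p = 0.307, edgeR, 6 libraries). Ugt1a10 was low in all libraries, at 1.99, 2.04 and 0.537 CPM in vehicle and 0.0733, 0.239 and 0.311 CPM in FGF19ΔKLB, without overlap. Its log2 difference was -2.87 (adjusted p = 0.0942 in edgeR and 0.00146 in DESeq2, 6 libraries). Ugt1a6b was at 230, 130 and 58 CPM in vehicle and 40.9, 36.8 and 29.2 CPM in FGF19ΔKLB, without overlap. Its log2 difference was -1.97 (adjusted p = 0.114 in edgeR and 0.000103 in DESeq2, 6 libraries). Of the 8 tested Ugt1a genes, 3 had a positive and 5 a negative log2 fold change in the 6-library edgeR fit. Ugt1a2 had 5, 15412 and 486 counts in vehicle, 353, 58 and 4 in FGF19ΔKLB and 0 in each FGF19WT library, where 0 counts allow up to 12, or about 3 read pairs; a single vehicle library thus holds nearly all of its reads. Summed over the locus, the 9 genes varied less, at 1121, 1430 and 1207 CPM in vehicle, 1354, 1135 and 1355 CPM in FGF19WT and 1349, 1202 and 1339 CPM in FGF19ΔKLB. The summed difference from vehicle was 0.05 on the log2 scale in FGF19ΔKLB (95% interval -0.388 to 0.488) and 0.03 in FGF19WT (-0.406 to 0.471) in edgeR's 9-library fit.

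**Figure D2:**
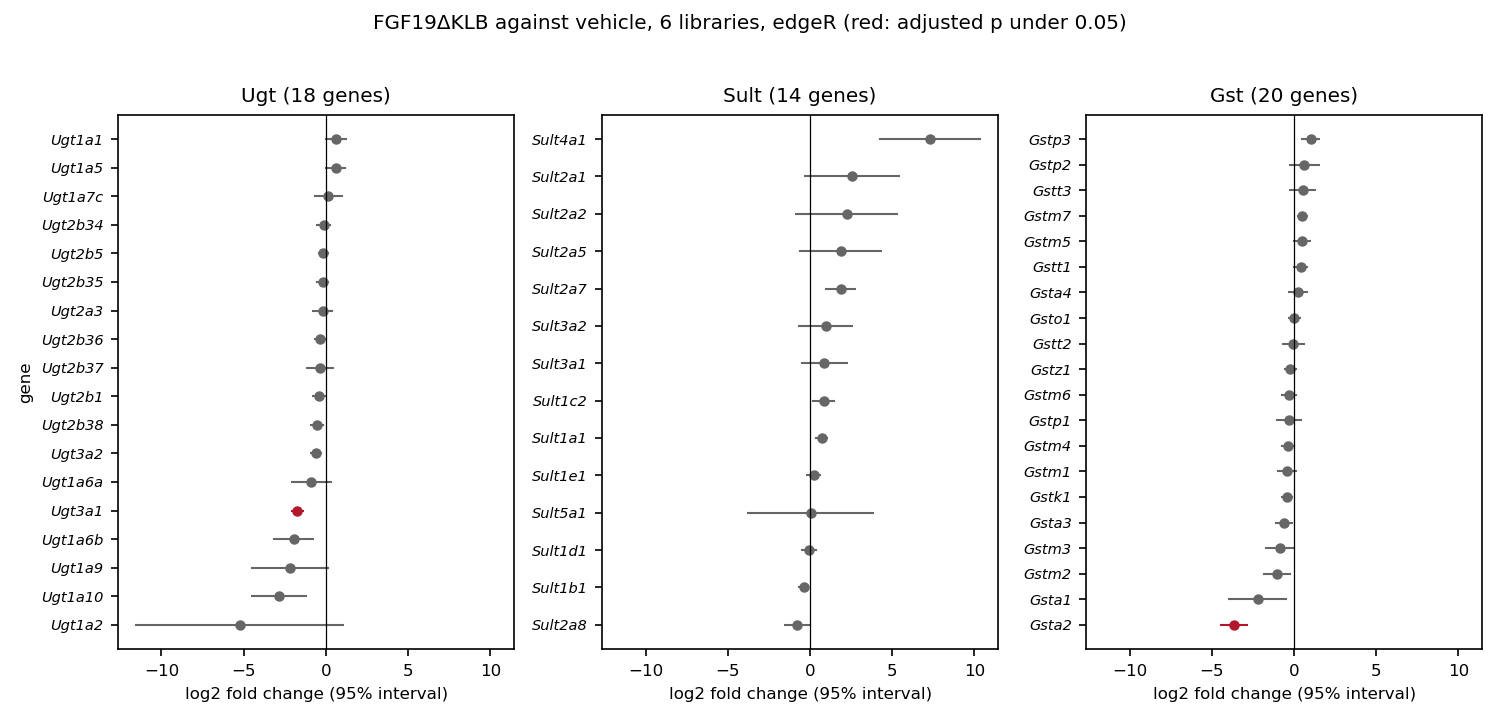
Points give the log2 fold change of FGF19ΔKLB against vehicle (horizontal axis) with 95% intervals from the 6-library edgeR fit for the 52 tested genes, by family. Gsta2 and Ugt3a1, in red, are the 2 genes with an adjusted p under 0.05, and 15 of 18 Ugt genes lie to the left of 0.

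No Sult gene was called by edgeR in FGF19ΔKLB in the 9-library or the 6-library fit. DESeq2 on the 6 libraries called Sult2a7 (adjusted p = 4e-06), Sult1a1 (0.00179) and Sult1c2 (0.0476), all higher. As a description, 12 of the 15 tested had a positive log2 fold change in the 9-library fit, with a median of 0.87 (0.83 with Sult4a1 set at its lower bound) against 0.002 over all genes. The 12 include Sult4a1 and Sult2a3, whose direction the count filter fixed. Sult2a3 had 0, 0 and 4 counts in vehicle and 140, 64 and 0 in FGF19ΔKLB, and passed the filter only through treated libraries. Sult2a3 was not tested in the 6-library fit, where 11 of 14 Sult genes were positive with a median of 0.85. Sult1a1, the main phenol sulfotransferase, was at 586, 520 and 435 CPM in vehicle, at 813, 780 and 930 CPM in FGF19ΔKLB and at 760, 710 and 836 CPM in FGF19WT. All 6 treated libraries were above all 3 vehicle libraries, and FGF19WT libraries 2 and 3 did not stand apart here. The difference for FGF19ΔKLB was 0.71 on the log2 scale (SE 0.153, 1.63-fold) with an adjusted p of 0.0707 in edgeR's 6-library fit. Sult1a1 overlaps Sgf29 on the opposite strand, and whether counting used strand is not given in the sources used here.

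Sult2a enzymes sulfate bile acids and steroids. Sult2a7 was at 109, 40.7 and 51.8 CPM in vehicle and at 254, 238 and 246 CPM in FGF19ΔKLB, more than any vehicle library, while in FGF19WT library 1 was highest of all at 414 CPM and libraries 2 and 3 were lowest at 4.8 and 1.94 CPM. Its difference between FGF19ΔKLB and vehicle was 1.87 on the log2 scale (SE 0.362, 3.66-fold), with an adjusted p of 0.0623 in edgeR's 6-library fit, 0.0303 without vehicle library 1 and 0.825 in the 9-library fit. None of its windows occurs in another gene. The 6 Sult2a genes other than Sult2a8 summed to 169.2, 41.92 and 66.11 CPM in vehicle, 419.9, 367.3 and 308.4 CPM in FGF19ΔKLB and to 647, 15.58 and 13.87 CPM in FGF19WT. Sult2a8, which sulfates bile acids, went the other way in FGF19ΔKLB, at 223, 221 and 143 CPM in vehicle and 115, 161 and 69 CPM, with overlap (log2 difference -0.77, adjusted p = 0.291, edgeR, 6 libraries). Sult3a1 overlapped as well, at 53.5 to 175 CPM in vehicle and 104 to 330 CPM in FGF19ΔKLB. Sult4a1, a form otherwise known from brain, had 16, 16 and 23 counts in FGF19ΔKLB and 0 in the other 6 libraries, so it passed the count filter only through the group in which it is present and its reads are few.

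Among the pi, mu and theta classes, Gstp3, Gstm7 and Gstt1 were higher in FGF19ΔKLB without overlap, and none was called by edgeR. DESeq2 on the 6 libraries called Gstp3 (adjusted p = 0.0013) and Gstm7 (0.0107) but not Gstt1 (0.199). Gstp3 was at 15.2, 26.6 and 17.7 CPM in vehicle, 39.7, 46.3 and 35.9 CPM in FGF19ΔKLB and 50.3, 51 and 72.6 CPM in FGF19WT, so that vehicle was lowest and FGF19WT highest, with no overlap between any of the 3 groups. For FGF19ΔKLB the log2 difference was 1.03 (SE 0.222, 2.04-fold, adjusted p = 0.0714, edgeR, 6 libraries), and none of the windows of Gstp3 occurs in another gene. Gstm7 was at 49.5, 53.6 and 43.9 CPM in vehicle and 74.6, 66.5 and 69.3 CPM in FGF19ΔKLB (log2 difference 0.52, adjusted p = 0.0806). Gstt1, of the theta class, was at 333, 338 and 268 CPM against 431, 347 and 466 CPM, with a narrow gap (log2 difference 0.40, adjusted p = 0.257, edgeR, 6 libraries). Gstm2, in contrast, was at 97.4, 149 and 56 CPM against 46.1, 46.8 and 55.3 CPM, lower without overlap by a narrow gap. Its log2 difference was -1.03 (adjusted p = 0.196 in edgeR and 0.0248 in DESeq2, 6 libraries). Gstm1 overlapped, at 834, 1410 and 809 CPM against 835, 724 and 702 CPM. The Gst family therefore had no common direction, with 8 of 20 log2 fold changes positive and 12 negative.

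**Figure D3:**
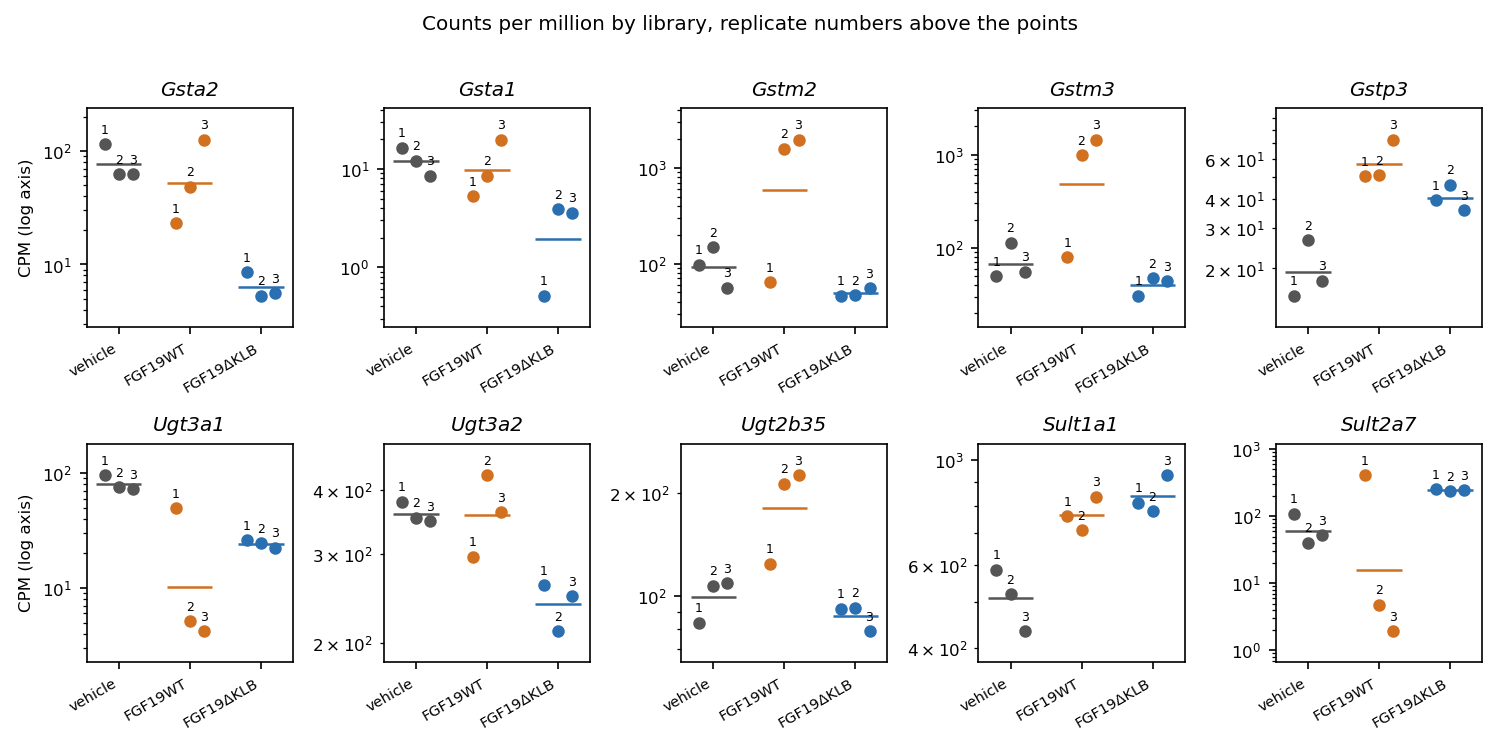
Each point is a library, numbered by replicate, with CPM on a log axis and a line at the geometric mean of each group of 3. Gsta2, Gsta1, Ugt3a1 and Ugt3a2 are lower in FGF19ΔKLB than in vehicle without overlap, Gstp3 and Sult1a1 are higher in both treated groups, and FGF19WT libraries 2 and 3 separate from library 1 in Gstm2, Gstm3, Ugt3a1 and Sult2a7.

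The genes around the conjugating enzymes were read from lists of cofactor supply, related enzymes, regulators and efflux pumps, 66 genes of which 63 were tested. None was called in the 9-library fit for FGF19ΔKLB against vehicle, and 4 were called in the 6-library fit, all lower, where 0.79% of all genes were called lower. Nat8, which acetylates cysteine conjugates in the last step from glutathione conjugates to mercapturic acids, was at 59.5, 51.2 and 49.3 CPM in vehicle and at 8.01, 10.8 and 5.08 CPM in FGF19ΔKLB; it fell by 2.75 on the log2 scale (SE 0.27, adjusted p = 0.0111, edgeR), a call lost without FGF19ΔKLB library 1 (0.0535). The microsomal transferase Mgst1 was at 3050, 2800 and 2720 CPM in vehicle and at 1240, 1230 and 1380 CPM in FGF19ΔKLB and fell by 1.16 (SE 0.13, adjusted p = 0.0139). In FGF19WT it was at 1690, 1190 and 1010 CPM, so all 6 treated libraries were below all vehicle libraries. Ugdh, which makes UDP-glucuronic acid, the sugar donor of Ugt enzymes, was at 117, 138 and 102 CPM in vehicle and 43.9, 43.9 and 59.9 CPM in FGF19ΔKLB (log2 difference -1.27, adjusted p = 0.0231). Suox, which oxidises sulfite to sulfate, was at 159, 109 and 132 CPM against 81.5, 62.9 and 65.9 CPM (log2 difference -0.93, adjusted p = 0.0475, lost when any of the 6 libraries was left out). Leaving out libraries also ended the calls of Mgst1 (without vehicle 1 or FGF19ΔKLB 1) and of Ugdh (without vehicle 1 or 2 or FGF19ΔKLB 1).

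The regulators and the other donor enzymes were not called. Nfe2l2, which encodes Nrf2, differed by 0.13 on the log2 scale (95% interval -0.198 to 0.461), Nr1i2, which encodes PXR, by -0.17 (-0.519 to 0.179) and Nr1i3, which encodes CAR, by -0.44 (-1.034 to 0.148) between FGF19ΔKLB and vehicle in the 6-library fit. The aryl hydrocarbon receptor gene Ahr differed by -0.65 (-1.323 to 0.021). Papss2, which makes the sulfate donor PAPS, differed by -0.04 (-0.522 to 0.433), and Gclc, the rate-limiting enzyme of glutathione synthesis, by -0.46 (-0.865 to -0.062, adjusted p = 0.233, edgeR).

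Summed markers of some other cell types and zones also differed between FGF19ΔKLB and vehicle. The 10 pericentral markers summed to 5000 to 8880 CPM in vehicle and 2050 to 3520 CPM in FGF19ΔKLB, with 2 called lower in the 6-library fit. The 8 stellate cell markers summed to 346 to 395 against 135 to 256 CPM, the 8 sinusoidal endothelial markers to 159 to 185 against 90.9 to 138 CPM, the 8 B and plasma cell markers to 103 to 246 against 31 to 70.1 CPM and the 8 T and NK cell markers to 7.53 to 15.8 against 2.19 to 4.17 CPM. The 8 hepatocyte markers summed to 105000 to 168000 against 206000 to 298000 CPM, most of it albumin, but 5 had a positive and 3 a negative log2 fold change and none was called. The sums of the 8 cell division genes were 5.04 to 6.25 against 10.2 to 23.2 CPM. The sums of the periportal, Kupffer cell, cholangiocyte and erythroid markers overlapped between the groups. In the 6-library fit, 1 T and NK cell marker was called lower and 1 cell division gene higher. None of the stellate, sinusoidal endothelial or B and plasma cell markers was called. The natural killer marker Klrb1c was at 0 in 5 libraries. The part of these differences in the lower Gsta2 and Ugt3a1 was not tested.

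FGF19WT was compared with vehicle next. Gst genes were higher in FGF19WT by a median of 0.96 on the log2 scale, with 14 of 20 positive and all 7 mu-class and 3 pi-class genes among them, while the median over all genes tested was -0.005, but the group was not uniform. The Gst genes summed to 4140, 5201 and 3774 CPM in vehicle and to 4353, 10280 and 12410 CPM in FGF19WT, so that library 1 lay within the range of vehicle. The fit of all 9 libraries called none of the 53 genes and 0.11% of all genes tested. At an unadjusted p under 0.05 it gave 20 genes (16 higher and 4 lower), or 37.7% against 18.8% of all genes (11.7% higher and 7.07% lower), and DESeq2 called 12, or 22.6% against 9.61%. Groups did not overlap for 13 of 53 genes, or 24.5%, near the 22.6% of all genes. The 6-library fit of FGF19WT and vehicle also called none of 50 genes, with 0.00574% of all genes called; 15 genes had an unadjusted p under 0.05, or 30% against 14.5%, and DESeq2 called 7, or 14% against 6.32%.

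The spread within FGF19WT was that of libraries 2 and 3 against library 1. Levels in libraries 2 and 3 lay outside the range of the other 7 libraries on the same side for 30 of the 53 genes, 16 above and 14 below, or 56.6% against 37.4% of all genes tested. By family 13 of 20 Gst genes were above and 4 below, 2 of 18 Ugt genes were above and 6 below, and 1 of 15 Sult genes was above and 4 below. Gstm2 was at 63.9 CPM in FGF19WT library 1, within the vehicle range of 56 to 149 CPM, and at 1590 and 1970 CPM in libraries 2 and 3. Gstm3 was at 49.5, 114 and 55.6 CPM in vehicle and at 79.8, 987 and 1440 CPM in FGF19WT, and Gstm1 at 968, 2820 and 3480 CPM in FGF19WT. The mu class as a sum was at 1153, 1889 and 1081 CPM in vehicle, 1326, 6132 and 7552 CPM in FGF19WT and 1094, 993.9 and 1000 CPM in FGF19ΔKLB. Library 1 was thus within the range of vehicle and libraries 2 and 3 far above it.

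The same 2 libraries had summed pericentral markers of 32830 and 28690 CPM against 4995 CPM in FGF19WT library 1, periportal markers of 191.3 and 221.7 against 7246 CPM and cell division genes of 102.3 and 143.3 against 12.81 CPM. Kupffer cell markers were below the other 7 libraries for 8 of 8 genes, sinusoidal endothelial markers for 6 of 8 and B and plasma cell markers for 7 of 8. Stellate cell markers were below for 6 of 8 and above for 1. Hepatocyte and cholangiocyte markers were below for 4 of 8 each, T and NK cell markers for 1 of 8 and erythroid markers for 0 of 5. The part of these markers in the Gst levels was not tested.

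**Figure D4:**
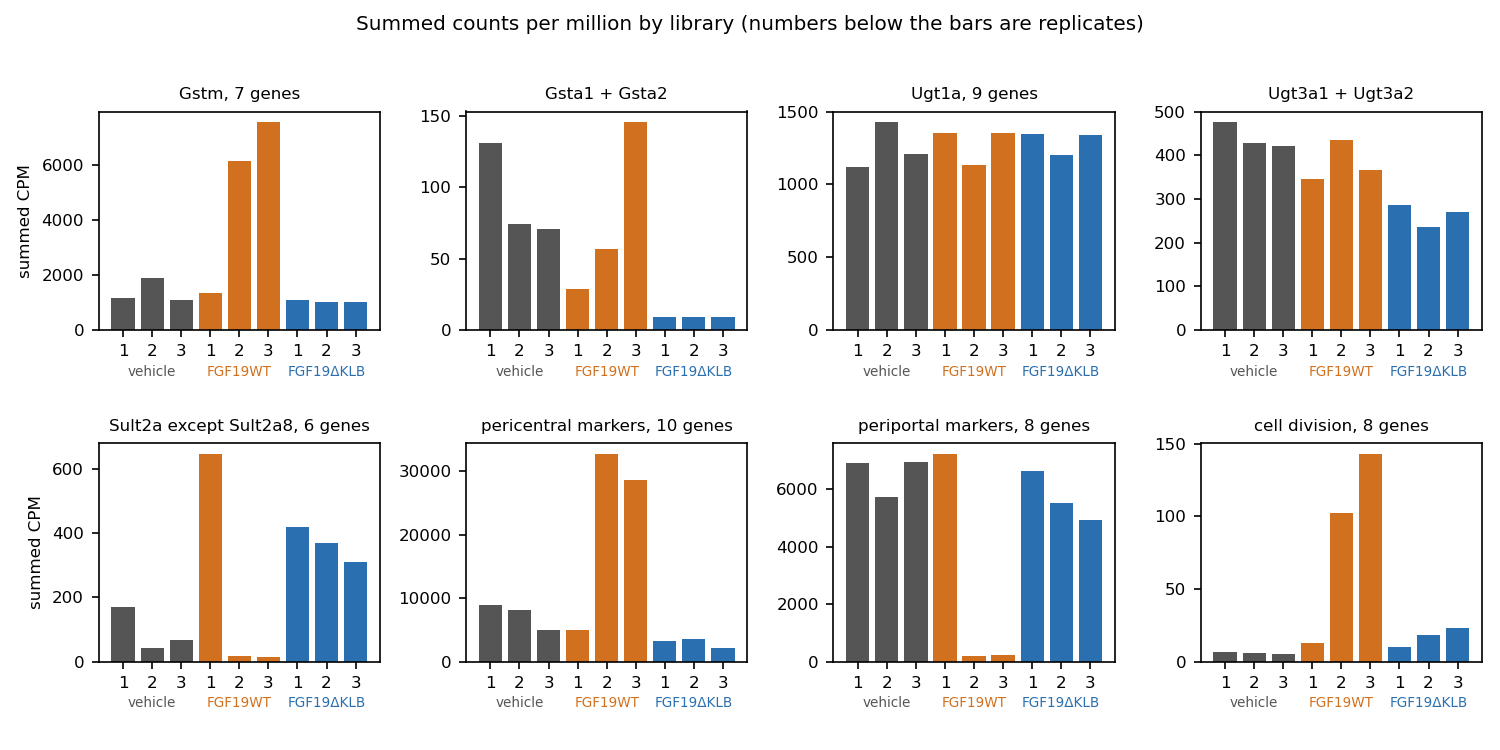
Bars give summed CPM in each of the 9 libraries for 5 gene groups of the conjugating enzymes and 3 marker lists, with the axis from 0. Mu-class Gst, pericentral and cell division sums are high in FGF19WT libraries 2 and 3, where periportal and Sult2a sums are low, while the Ugt1a sum stays between 1121 and 1430 CPM in all libraries.

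In some genes FGF19WT library 1 lay on the same side of vehicle as libraries 2 and 3. Gstp3, at the values above, was higher than vehicle in 3 of 3 libraries by 1.55 on the log2 scale (SE 0.246, 2.92-fold). Its adjusted p was 0.08 in edgeR's 9-library fit, 0.245 in edgeR's 6-library fit and 0.0351 with limma over 9 libraries. Gstm7 was at 68.8, 185 and 114 CPM against 43.9 to 53.6 CPM (log2 difference 1.32, adjusted p = 0.125, edgeR). Sult1a1 was higher by 0.58 (SE 0.192, adjusted p = 0.171, edgeR). Ugt2b35 was at 83.6, 107 and 109 CPM in vehicle and at 124, 212 and 225 CPM in FGF19WT, a difference of 0.90 (adjusted p = 0.131), and Ugt2b34 at 304, 260 and 277 against 306, 495 and 520 CPM. In both Ugt2b genes library 1 exceeded vehicle only narrowly. Sult5a1 was at 1.16, 0.161 and 0.589 CPM in vehicle and 0.132, 0 and 0 CPM in FGF19WT, too few reads for a firm direction. Ugt3a1 was lower in all 3 FGF19WT libraries (log2 difference -2.05, SE 0.839, adjusted p = 0.237, edgeR).

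Without FGF19WT library 1, so with libraries 2 and 3 against vehicle, 33 of 54 genes were called (18 higher and 15 lower), or 61.1% against 27.4% of all genes. Those higher were mainly Gst genes, including Gstm2 by 4.14 (adjusted p = 0.000202, edgeR), and those lower included Ugt3a1 by -4.13 (adjusted p = 2.26e-05) and Sult2a7 by -4.32 (adjusted p = 0.00106). Libraries 2 and 3 were set apart by their expression in these same data, so small p-values were likely from the start. These calls describe the pair and are no test of FGF19WT. The same limit holds below for FGF19ΔKLB against FGF19WT without library 1. Without libraries 2 and 3, none of 55 genes was called, with 0.1% of all genes called and FGF19WT library 1 taken to vary like the other groups.

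FGF19ΔKLB was compared with FGF19WT last. Most Gst genes were lower in FGF19ΔKLB, 16 of 20 with a median of -1.14 on the log2 scale against 0.01 over all genes tested. The 9-library fit called none of the 53 genes and 0% of all genes tested, while 18 genes (1 higher and 17 lower) had an unadjusted p under 0.05, or 34% against 12.5% of all genes (7.96% lower), and DESeq2 called 15, or 28.3% against 4.6%. The 1 higher gene was Sult4a1, which passed the count filter only through FGF19ΔKLB. Sult4a1 is also among the DESeq2 calls and among the genes higher without overlap. Groups did not overlap for 18 genes (3 higher and 15 lower), or 34% against 13.5% of all genes (6.39% lower). The comparison shares the FGF19ΔKLB libraries with the first one and the FGF19WT libraries with the second, so it is no independent result.

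Gsta2 was at 23.1 to 126 CPM in FGF19WT and 5.29 to 8.56 CPM in FGF19ΔKLB, a log2 difference of -3.35 (SE 0.606, adjusted p = 0.237, edgeR, 9 libraries). Gstm3 was at 30.6, 47.6 and 43.7 CPM in FGF19ΔKLB, below FGF19WT library 1 at 79.8 CPM, for a log2 difference of -4.37 (SE 0.918, adjusted p = 0.237, edgeR). Ugt2b35 was at 91.7, 92.3 and 79 CPM in FGF19ΔKLB against 124 CPM or more in FGF19WT (log2 difference -1.09, SE 0.241, adjusted p = 0.237, edgeR). Ugt2b34, at 292, 270 and 202 CPM, was below FGF19WT library 1 at 306 CPM by a narrow gap (log2 difference -0.79, adjusted p = 0.274, edgeR). Without FGF19WT library 1, 28 of 54 genes were called, or 51.9% against 20.2% of all genes, and without libraries 2 and 3 none of 55 was called, against 0.0352%.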

How the data were processed

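Liver RNA was measured by sequencing in 9 libraries, 3 per group. The authors deposited 1 table that holds expected counts and FPKM values for each gene in every library; per the submitters' processing notes Bowtie 0.12.2, HISAT2 2.0 and StringTie 1.3.0 were used and the build was mm8, with no roles given. The lower coordinates of all 60 genes and the upper coordinates of 58 match GENCODE M21 on GRCm38, so positions are given on that build. The deposited counts are whole numbers that peak at 4, 8 and 12 among low values, so about 4 counts stand for 1 read pair. Groups follow the sample titles; the columns of FGF19ΔKLB carry the code F19_HBS.

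The fits used edgeR 4.0.16 and R 4.3.3 (TMM scaling, edgeR's filter on low counts, robust quasi-likelihood test, group as the only term, Benjamini-Hochberg adjustment over 18142 genes, threshold 0.05) over 9 libraries with 6 residual degrees of freedom, and over the 6 libraries of each treated group and vehicle (17340 and 17430 genes). Alternatives were DESeq2 1.42.0, limma 3.58.1 on log2(FPKM + 1) of the deposited FPKM values, DESeq2 size factors, other filters, counts divided by 4, a replicate block and leaving out libraries. The fits were also run on simulated data. That simulation gave all groups the same spread, so it cannot show how the fits handle the unequal FGF19WT libraries. Shared sequence is the share of 50-base windows of a gene's transcripts found in another gene. Genes were named if called, if among the 3 highest of their family in FPKM, or if among the 2 smallest p-values per family and comparison without overlap. Gsta1, Gsta4, Gstt1, Sult2a3, Sult2a8 and Ugt1a6b, and values of named genes outside the comparison that named them, were chosen after their values were seen. Fits of summed genes (Gsta1 with Gsta2, and the Ugt1a genes) were also added after the data were seen. Members and lists were chosen with earlier results of these data known.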

Additional observations from a re-analysis of the deposited data

How the results depend on the processing

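Between FGF19WT and vehicle the 9-library fit called 0 genes, DESeq2 12 (9.61% of all genes tested), limma 1 (0.643%), and fits without a library between 0 and 33 (27.4% at 33). In the 6-library fit of those groups DESeq2 called 7 (6.32%), and fits without a library between 0 and 32. The 32 came without FGF19WT library 1, where the 9-library fit called 27.4% of all genes. Between FGF19ΔKLB and vehicle in the 9-library fit DESeq2 called 6 (2.04%), limma 1 (0.476%), the 6 libraries alone 2 and the fit without both FGF19WT libraries 2 and 3 called 2; fits without a library called 0 to 2. In its 6-library fit, with 2 genes called, no filter gave 5 (1.62%), DESeq2 12 (7.95%), limma 5 (4.59%), and fits without a library 2 to 3. Between FGF19ΔKLB and FGF19WT DESeq2 called 15 (4.6%) and fits without a library 0 to 28 (20.2% at 28). Each highest value came without FGF19WT library 1, except in the 6-library fit of FGF19ΔKLB, where it came without a vehicle library. Among the genes named for a difference, each in the comparison that named it, 345 values under the alternatives kept direction and side of the threshold, 30 passed it only in the alternative and 15 lost it, and none reversed. Most of these genes were named because their groups did not overlap, which made a reversal unlikely from the start. Genes named for their level were not counted there: Sult2a7 between FGF19WT and vehicle turned from 1.06 to -4.32 on the log2 scale (adjusted p = 0.00106, edgeR) without FGF19WT library 1. Low-count genes such as Sult4a1 are limited by depth.

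Replicate numbers did not pair the libraries: same-numbered libraries of different groups correlated in their deviations between -0.048 and 0.147. With the replicate block, 0 genes were called in each 9-library comparison and 2 in the 6-library fit of FGF19ΔKLB and vehicle, where 103 genes were called in all against 292 without it. Of the cofactor and related genes called there, Mgst1 (adjusted p = 0.0573, edgeR), Suox (0.0531) and Ugdh (0.0731) lost their calls with the block.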

Other observations

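The pseudogenes left out of the 60 genes include Gstm2-ps1, at 18.4, 30 and 12.6 CPM in vehicle, 18.7, 61.7 and 75.4 CPM in FGF19WT and 13.8, 14.6 and 9.39 CPM in FGF19ΔKLB. It was thus highest in FGF19WT libraries 2 and 3, as Gstm1 and Gstm2 were, and 14.1% of the windows of Gstm1 occur in it. Sult2a-ps1 was at most 1.04 CPM, in FGF19WT library 1.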
